A study of Mus musculus with 7 samples.

Results

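The cytoplasmic ribosomal protein genes were examined as 1 set in single cells of the mouse mammary gland. Members were chosen by symbol from the count matrix, namely Rpl or Rps with a number and an optional suffix letter, together with Rpsa, Rplp0, Rplp1 and Rplp2. Ribosomal S6 kinases and symbols that mark a pseudogene with -ps were left out. The set held 85 of the 27998 genes of the matrix, of which 53 belong to the large subunit and 32 to the small subunit by symbol. Rpl6l, among the 53, is annotated as a processed pseudogene. The members lie on 19 chromosomes, with 4 on the X chromosome. Of the 85 members, 80 passed the filter on low counts in all 8 cell types compared between ages, 3 passed in some types (Rpl29 in 6, Rpl7l1 in 5 and Rpl39l in 1) and 2 passed in none. These 2 were Rpl10l, with 0 UMIs in any cell, and Rpl3l, with 12 UMIs in all.

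A cytoplasmic ribosome is assembled in the nucleolus from ribosomal RNAs and about one copy of each ribosomal protein. The large subunit joins amino acids and the small subunit reads the mRNA. Many mRNAs of ribosomal proteins and elongation factors start with a run of pyrimidine bases, the terminal oligopyrimidine tract, through which their translation responds to nutrients and growth signals. Because the genes are needed in every dividing or secreting cell, their mRNAs are among the most abundant in most tissues.

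Cells were taken from the abdominal mammary glands of nulliparous female mice at diestrus, on a mixed background of FVB, 129 and C57BL/6J. Young mice were 3 to 4 months old (Young A, B and C) and aged mice 13 to 14 months old (Aged A, B, C and D). Lymph nodes were removed and the glands dissociated, so that adipocytes were not captured. One 3′ droplet library was made per mouse, in which a unique molecular identifier (UMI) counts 1 captured mRNA molecule whatever its length.

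The matrix held 13684 cells and 83649527 UMIs, with 1264 to 2865 cells per mouse and a median of 4758.5 to 7109.5 UMIs per cell. Cell types were those named by the authors, HS being hormone-sensing and AV secretory alveolar luminal cells. The cells labelled vascular endothelial carried the defining markers in every mouse, with summed endothelial markers between 1836 and 2301 CPM (UMIs of a gene scaled to a common library total). Pericytes came close in this sum, with 1628 to 1759 CPM in young and 733 to 1244 CPM in aged mice. AV cells had 11.3 to 48.5 CPM. The age of a mouse and the processing of its library cannot be told apart, since the young and the aged libraries also differed in the format of their barcodes. Nor can the age difference of a summed type be divided between cells in other states and more mRNA per cell. In all, 44 barcodes were found in more than 1 mouse. Nothing in the labels beyond a letter separates the mice, and p-values measure the spread between these 7 animals.

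The start of an mRNA decides whether it opens with a pyrimidine run, and windows of some members named below are shown for that reason. Windows of other named members, with a run (such as Rpl39) or without one (such as Rpl41 and Rps4x), are not shown. The windows shown therefore do not give the share of members with a run, which follows them. Each window holds 10 bases before and 20 bases from the RefSeq start (GRCm38.p6), on the strand of the gene and 5′ to 3′. Capitals mark a run that opens with a C within 5 bases of that start and continues with at least 4 bases that are each C or T; this was searched on the transcribed strand only.
Rps18 (chr17:33955646-33955675, minus strand): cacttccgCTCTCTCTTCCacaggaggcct
Rpl12 (chr2:32961702-32961731, plus strand): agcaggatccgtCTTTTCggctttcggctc
Rps24 (chr14:24490668-24490697, plus strand): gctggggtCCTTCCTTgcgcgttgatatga
Rps10 (chr17:27635225-27635254, minus strand): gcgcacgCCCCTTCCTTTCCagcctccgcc
Rps2 (chr17:24720053-24720082, plus strand): gtcgagatctcgcgCTTCTTggagcactat
Rps27l (chr9:66946076-66946105, plus strand): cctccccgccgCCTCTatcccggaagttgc
Rpl10 (chrX:74270806-74270835, plus strand): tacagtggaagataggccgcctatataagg
Rps12 (chr10:23787190-23787219, minus strand): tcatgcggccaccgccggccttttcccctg
Rpl7l1 (chr17:46782637-46782666, minus strand): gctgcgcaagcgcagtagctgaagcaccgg

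Of the 64 members with an entry in the RefSeq table, 29 (45.3%) had such a run at 1 or more of their starts. In the whole table the share was 21.2% of 27025 genes. It was 24.6% of 69 genes for mitochondrial ribosomal proteins, which belong to the ribosome of the organelle, and 30.8% of 13 genes for elongation factors and ribosome-associated proteins. Rpl10 and Rps12, among the members with the larger age differences below, had no run that opened within 5 bases of the start, although the Rps12 window holds pyrimidines further in. Rps27l, whose age difference was negative, had a run of 5 bases at the start shown and no run at its other RefSeq start. Rps24 likewise had a further RefSeq start without a run. A run is a match of letters, and an alternative start outside the table was not searched.

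The set took a different share of the mRNA pool in each cell type. Averaged over mice, ribosomal protein mRNA made up 37.5% ± 3.45 of UMIs in AV cells (SD, n = 7), 35.5% ± 4.64 in T and B cells, 31.9% ± 3.18 in myoepithelial cells and 28.9% ± 2.78 in HS cells. In fibroblasts the share was 24.8% ± 3.53. Vascular endothelial cells had 24.2% ± 5.23, pericytes 21.4% ± 2.97 and Mb macrophages 16.1% ± 2.94. The spread of neighbouring types overlapped, whereas the 21.3 points between AV cells and Mb macrophages exceeded the spread in either type.

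The order held within mice at its ends. Among the 8 types AV cells were 1st or 2nd in all 7 mice. Mb macrophages were 7th in all 3 young mice and 8th in all 4 aged mice. Vascular endothelial cells stood 8th, 8th and 6th in the young mice and 4th, 5th, 4th and 6th in the aged mice. Single cells of a type were spread widely, with the middle 90% of AV cells between 27.7% and 47.7% and of vascular endothelial cells between 12.6% and 35.9%.

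The less abundant types were described only, because fewer mice had 3 or more of these cells. HS-AV cells, which carry markers of both luminal types, had shares between 26.4% and 34.6% in 6 mice. Dendritic cells lay between 27.6% and 31.6% and NK cells between 24.2% and 31.9% in 5 mice each. Lymphatic endothelial cells lay between 17.2% and 21.3% in 5 mice. Ma macrophages lay between 16.5% and 20.7% in the 3 young mice, the only mice with 3 or more of them. The lymphatic and both macrophage types thus had lower shares than every value in AV cells.

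**Figure D1:**
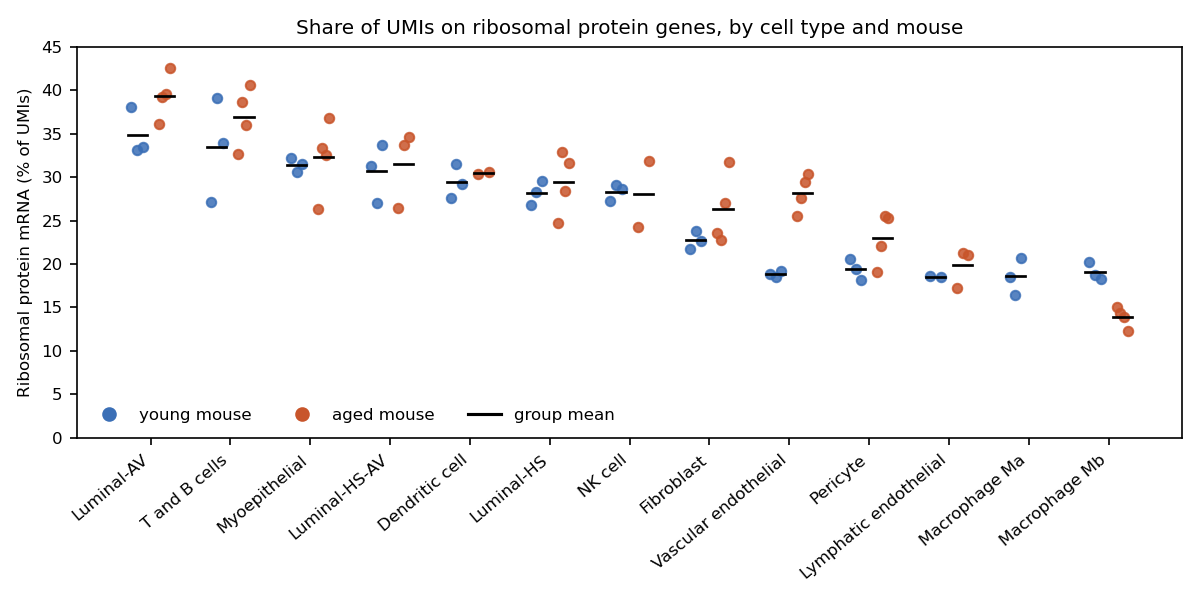
Percent of UMIs on ribosomal protein genes (y axis) in each of the 13 cell types (x axis), with 1 point per mouse that had at least 3 cells of the type, young in blue and aged in orange, and a line at each group mean. The aged mice sit above the young mice in vascular endothelial cells (25.6% to 30.3% against 18.5% to 19.2%) and below them in Mb macrophages (12.3% to 15.1% against 18.2% to 20.2%).

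Both subunits made up the pool in every type. In vascular endothelial cells, proteins of the large subunit took 10.1% to 10.6% of UMIs in young mice and 14.0% to 16.8% in aged mice. Proteins of the small subunit took 8.25% to 8.67% and 11.5% to 13.6%. Neither range overlapped between the ages, so the difference was not carried by 1 subunit. The pool was broad, since the 10 most abundant members of a type held 22.0% to 24.9% of it and the 20 most abundant held 39.4% to 41.6%.

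Of the 85 members, 77 averaged at least 1000 CPM over the 8 types. Rpl41, Rps27, Rps19, Rps29 and Rpl13 had the highest mean CPM, at 7744, 6741, 6551, 6523 and 6513. Rps19 is the small-subunit protein most often mutated in Diamond-Blackfan anaemia. The order among these 5 was not tested. Rpl7l1, a paralog of Rpl7, varied most between types, with a standard deviation of 1.16 over the 8 type means on the log2(CPM + 1) scale, with few UMIs (a mean of 37.1 CPM). Its highest mean, in myoepithelial cells (58.7 CPM), rested on the aged mice, at 69.2 to 79.3 CPM. In young mice the 34.0 to 44.2 CPM of myoepithelial cells overlapped the 39.9 to 45.2 CPM of vascular endothelial cells.

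Rpl12, Rpl5, Rpl29 and Rpsa followed in spread over types. Rpl12, which lies at the stalk of the large subunit, had 1971 to 3747 CPM in AV cells against 615 to 1122 CPM in Mb macrophages. Rpl5, which binds the 5S ribosomal RNA and can bind Mdm2, had 1243 to 1873 CPM in AV cells and 267 to 712 CPM in Mb macrophages. Rpsa, a small-subunit protein also known as the laminin receptor, had 2992 to 4958 CPM in T and B cells and 868 to 1429 CPM in Mb macrophages. The mice of the higher and the lower type did not overlap. These genes were chosen for their spread over the same types, so this separation is not a separate result.

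Paralogs of members were a minor part of the pool. Rpl39l, a paralog of Rpl39 best known in male germ cells, was found mainly in fibroblasts, with 0 to 20.7 CPM. It gave 0 UMIs in T and B cells, dendritic cells, NK cells and Mb macrophages. Rpl36al reached 810 to 1383 CPM in HS cells and 371 to 548 CPM in pericytes. Rpl22l1, a paralog of Rpl22, reached 814 to 1056 CPM in vascular endothelial cells and 1421 to 1705 CPM in T and B cells. Rps27l, a paralog of Rps27 and a known p53 target, was at 1134 to 2096 CPM in dendritic cells and 192 to 408 CPM in vascular endothelial cells. For Rpl36al, Rpl22l1 and Rps27l the mice of the types given did not overlap. Rpl39l did overlap, since its fibroblast values began at 0 CPM.

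The comparison of ages asked how the gland of nulliparous mice differs as they grow old. In vascular endothelial cells ribosomal protein mRNA took 18.8%, 18.5% and 19.2% of UMIs in Young A, B and C. It took 25.6%, 27.7%, 29.4% and 30.3% in Aged A, B, C and D. All 4 aged mice were above all 3 young mice, and the group means of 18.9% ± 0.362 (SD, n = 3) and 28.2% ± 2.10 (SD, n = 4) differed by 9.37 points. The separation was present in each cell cycle phase assigned by the authors. Shares were 19.0% to 19.9% in young and 25.4% to 30.7% in aged mice in G1, 18.5% to 19.1% and 26.2% to 29.9% in S, and 16.8% to 19.5% and 22.0% to 31.2% in G2M.

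For each gene, counts were summed per mouse and tested with edgeR's quasi-likelihood test on all genes of the type. Genes counted as called when they passed a Benjamini-Hochberg adjusted p of 0.05 and moved 1.5-fold or more. In vascular endothelial cells 78 of the 82 members tested were called higher in aged mice and 0 lower, against 14.2% of all genes called higher and 945 of 7864 genes called lower. All aged mice were above all young mice for 80 members, against 18.4% of all genes. The median log2 fold change was 0.99 over members and −0.05 over all genes tested. It was 0.95 over the 50 large-subunit members and 1.03 over the 32 small-subunit members tested.

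How far the members rose depended on the scaling. Main values were scaled by TMM, a trimmed mean over genes, whose factors were 1.12 to 1.20 in young and 0.850 to 0.951 in aged vascular endothelial cells. Scaled to library totals alone, 47 members were called higher (8.09% of all genes) and 1 lower, Rps27l (29.9% of all genes). The median over members was then 0.63 and that of all genes −0.41. A scaling shifts every gene of a type by about the same amount, so the 1.04 by which the members' median lay above that of all genes is the same on either scale by construction.

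The 3 called members with the largest non-overlapping difference in vascular endothelial cells were Rpl6l, Rpl21 and Rpl10. Rpl21, a large-subunit protein, had 1633, 1626 and 1533 TMM-scaled CPM in Young A, B and C and 3546, 3962, 4664 and 4794 in Aged A, B, C and D. The lowest aged mouse, Aged A, had more than the highest young mouse, Young A. The log2 fold change was 1.41 ± 0.14 (SE, edgeR's quasi-likelihood adjusted p = 7.99e-07).

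Rpl10, an X-linked large-subunit protein near the catalytic centre whose loading is a late step of maturation, had 2023, 1823 and 1991 TMM-scaled CPM in the young and 4469, 4879, 5465 and 5700 in the aged mice. Its groups also stood well apart, with a log2 fold change of 1.40 ± 0.13 (SE, edgeR's quasi-likelihood adjusted p = 5.19e-07). Scaled to library totals, the log2 fold changes were 1.05 for Rpl21 and 1.04 for Rpl10, and both stayed called.

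Rpl6l had 257, 185 and 149 TMM-scaled CPM in the young and 1102, 485, 437 and 799 in the aged vascular endothelial cells. Aged A was the highest and Aged C the lowest of the aged mice, all above the young. The log2 fold change was 1.82 ± 0.40 (SE, edgeR's quasi-likelihood adjusted p = 0.0149), and the adjusted p was 0.0646 without Young B and 0.0533 without Young C. The annotation names Rpl6l a processed pseudogene, and its transcript is 98.7% identical to Rpl6 over 871 bases, so reads of Rpl6 and Rpl6l may have been split.

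Further large-subunit members were named because they were called in several types, a choice that itself favours large fold changes. The 3 given here lay above the median of 0.95, and Rpl17, named by the same rule, is not given. Rpl12 had 670, 627 and 735 TMM-scaled CPM in young and 1344, 1588, 1932 and 2119 in aged vascular endothelial cells (log2 fold change 1.37 ± 0.16). Rpl39, a small protein lining the exit tunnel, had 1637, 1820 and 1961 in young and 3972, 3992, 4281 and 5078 in aged mice (1.26 ± 0.14). Rpl7 had 1371, 1362 and 1527 in young and 2573, 2944, 3585 and 3800 in aged mice (1.18 ± 0.15). None of these 3 genes overlapped between the ages.

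Small-subunit members were also higher. Rps12 had 1232, 1257 and 1332 TMM-scaled CPM in young and 2201, 2884, 3460 and 3850 in aged vascular endothelial cells (log2 fold change 1.28 ± 0.17). Rps2, the uS5 protein near the mRNA entry, had 1969, 1742 and 2012 in young and 3820, 3927, 4250 and 5336 in aged mice (1.18 ± 0.14). Rps4x, an X-linked member, had 2372, 2288 and 2608 in young and 4607, 5151, 5800 and 6043 in aged mice (1.16 ± 0.13). For all 3 genes Aged A was the lowest and Aged D the highest of the aged mice, and the ages did not overlap.

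Rps27l, Rpl41, Rpl22l1 and Rps18 were the 4 members tested that were not called in these cells. Rps27l had 341, 315 and 369 TMM-scaled CPM in young and 229, 360, 320 and 228 in aged mice, and the ages overlapped (log2 fold change −0.26 ± 0.17). Rps27, its paralog, had 3953, 5986 and 5564 in young and 10094, 7163, 7527 and 9160 in aged mice and was called higher (0.72 ± 0.16). Rpl41, which encodes the shortest ribosomal protein, differed by 0.33 ± 0.12, and Rpl22l1 by 0.45 ± 0.13. These passed the adjusted p but not the fold minimum, as did Rps18 at 0.54 ± 0.12.

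Cells of other types, or their free RNA, differed between the ages in the cells labelled vascular endothelial, and their part in the result was not tested. Summed erythroid markers were 2021 to 5271 CPM in young and 6.98 to 359 CPM in aged mice. Summed myeloid markers were 8702, 626, 675 and 2990 CPM in Aged A, B, C and D, and 199 to 600 CPM in young mice. Pericyte markers were 98.6 to 346 CPM in young and 5.59 to 66.9 CPM in aged mice, and luminal markers 333 to 551 CPM and 182 to 313 CPM. Immediate early genes, which respond to dissociation among other stimuli, were 21000 to 28490 CPM in young and 15170 to 19160 CPM in aged mice (4 of 13 called lower, 2 higher). The nuclear RNA Malat1 was 28770 to 37280 CPM and 17370 to 27020 CPM. None of these ranges overlapped between the ages.

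In the fit of single genes 2 of 4 erythroid and 1 of 2 myeloid markers tested (Lyz2) were called lower in aged vascular endothelial cells. Lyz2 was thus called lower although the summed myeloid markers were higher in aged mice. Also called lower were 2 of 3 fibroblast, 1 of 2 pericyte, 1 of 3 luminal and 1 of 3 hormone-sensing markers. Myoepithelial markers went the other way, with 2 of 5 tested called higher and 0 lower. Fibroblast markers were 42.5 to 148 CPM in young and 11.7 to 33.9 CPM in aged mice, and mitochondrially encoded UMIs were 3.10% to 3.17% and 2.35% to 2.53%. Without Aged A 77 members were called, and without Aged D 73.

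**Figure D2:**
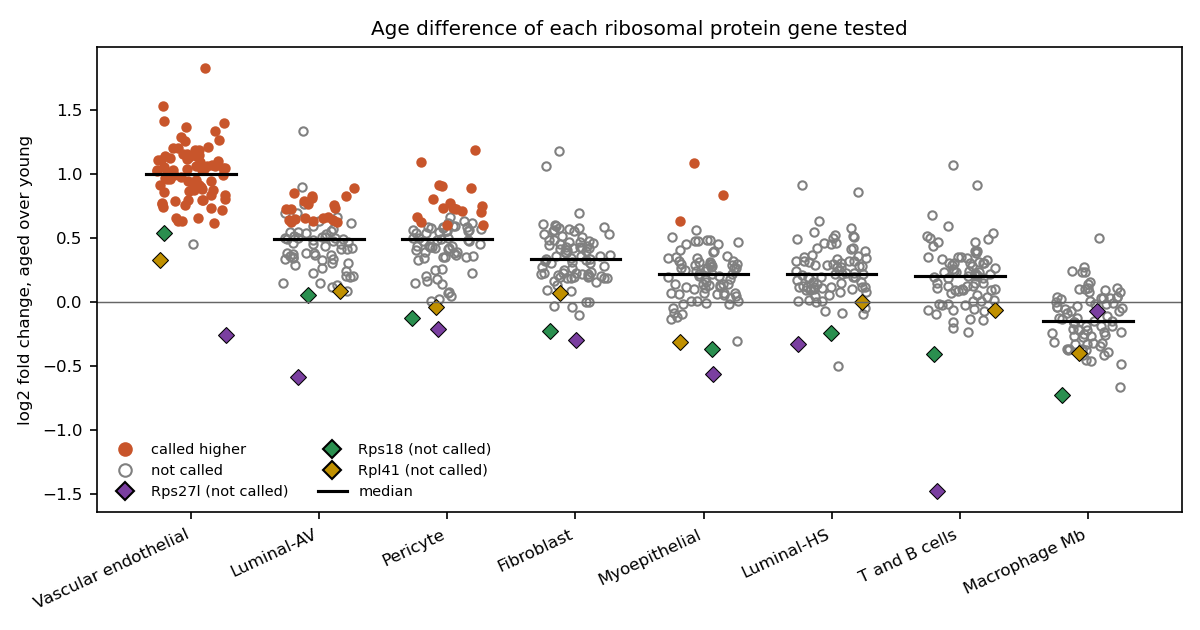
Log2 fold change between aged and young mice on TMM-scaled counts (y axis) for every ribosomal protein gene tested in each of 8 cell types (x axis), filled orange where called higher and open where not called, with Rps27l, Rps18 and Rpl41 as diamonds and a line at the median. The median is 0.99 in vascular endothelial cells, 0.49 in AV cells and pericytes and −0.15 in Mb macrophages, and Rps27l lies below 0 in all 8 types.

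In AV cells the difference went the same way and was smaller. The share was 38.03%, 33.2% and 33.4% in the young and 36.2%, 39.2%, 39.6% and 42.6% in the aged mice, so that Young A overlapped the aged range. Of 82 members tested 20 were called higher and 0 lower, against 2.92% of all genes called higher and 3.2% called lower. All aged mice were above all young mice on the TMM scale for 60 members, against 11.7% of all genes. The median log2 fold change was 0.49, against 0.02 over all genes.

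Markers of other cell types moved with age in AV cells as well, and their part in the result was not tested. Hormone-sensing markers were called lower in aged mice for 5 of 5 tested, fibroblast markers for 4 of 4, and myeloid markers for 2 of 3. Summed fibroblast markers were 30.6 to 178 CPM in young and 1.23 to 5.59 CPM in aged mice, and myeloid markers 105 to 164 CPM and 12.7 to 64.0 CPM. Mitochondrially encoded UMIs were 3.72% to 4.45% in young and 2.30% to 2.68% in aged mice. The median UMI number per cell was 4864 to 5602.5 and 6407 to 7796. None of these ranges overlapped.

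Among members called in AV cells, Rps12, Rpl12 and Rpl10 had the largest non-overlapping differences. Rpl6l differed by more (1.34 ± 0.36) and did not overlap, but its adjusted p was 0.0601 in edgeR's quasi-likelihood test. Rpl10 had 4349, 4872 and 4724 TMM-scaled CPM in young and 7407, 7222, 8878 and 9506 in aged mice. The lowest aged mouse, Aged B, was above the highest young mouse, Young B, and the log2 fold change was 0.83 ± 0.15 (SE, edgeR's quasi-likelihood adjusted p = 0.00911). Rps12 had 2538, 2041 and 2162 in young and 2996, 3916, 4776 and 4944 in aged mice (0.89 ± 0.19, adjusted p = 0.0222). Rpl12 had 2035, 1811 and 1987 in young and 2598, 3206, 3881 and 4295 in aged mice (0.85 ± 0.19, adjusted p = 0.0231). Both genes were lowest in Aged A and highest in Aged D among the aged mice.

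The AV calls rested on the scaling and on single mice. With library totals alone 0 members were called higher (1.6% of all genes) and 1 lower, Rps27l (7.8% of all genes), with a median of 0.21 over members and −0.25 over all genes. The number called was 8 without Young A, 3 without Young B, 0 without Young C, 3 without Aged C and 6 without Aged D, and 28 without Aged A. It was 0 with sums thinned to equal totals.

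**Figure D3:**
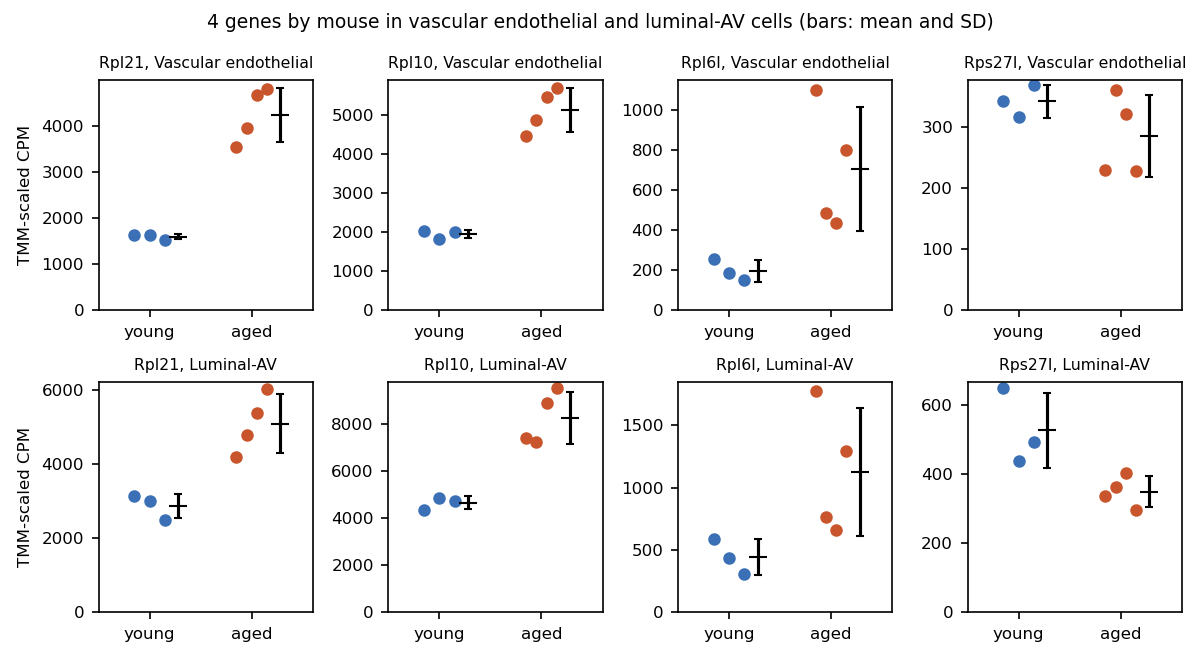
TMM-scaled CPM (y axis, from 0) of Rpl21, Rpl10, Rpl6l and Rps27l in vascular endothelial cells (upper panels) and AV cells (lower panels), with 1 point per mouse and the mean and SD of each age beside it. Rpl21, Rpl10 and Rpl6l are higher in all 4 aged mice in both cell types, and Rps27l is lower in all 4 aged mice in AV cells (295 to 404 against 436 to 647).

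Pericytes, the contractile cells around capillaries, had shares of 20.6%, 19.4% and 18.2% in young and 19.0%, 22.0%, 25.5% and 25.3% in aged mice. Aged A lay within the young range. Of 81 members tested 17 were called higher and 0 lower, against 7.04% of all genes called higher and 4.61% called lower. Aged mice were all above young mice for 37 members, against 12.8% of all genes, and the median log2 fold change was 0.49.

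Among members called in pericytes, Rpl6l, Rpl21 and Rps2 had the largest non-overlapping differences. Rpl21 had 2208, 1999 and 1860 TMM-scaled CPM in young and 3727, 4291, 4676 and 4509 in aged mice. All aged mice were far above the young (log2 fold change 1.09 ± 0.17, edgeR's quasi-likelihood adjusted p = 0.00118). Rps2 had 2943, 2412 and 2460 in young and 4232, 4811, 5115 and 5473 in aged mice (0.91 ± 0.17, adjusted p = 0.00392). Rpl6l had 292, 220 and 137 in young and 803, 413, 335 and 503 in aged mice (1.19 ± 0.31, adjusted p = 0.0266, and 0.0888 without Young B and 0.0883 without Young C).

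Pericytes were few, with 20 to 46 cells in an aged mouse and 39 to 121 in a young mouse. With library totals alone 6 members were called higher and 0 lower, against 4.58% and 8.8% of all genes. The number called was 8 without Young A, 4 without Young B, 3 without Young C, 10 without Aged C, 9 without Aged D and 37 without Aged A. Of the myoepithelial markers 4 were tested in pericytes, all contractile genes that pericytes also express (Acta2, Myl9, Myh11 and Mylk), and 4 were called higher. The summed list was 2107 to 2671 CPM in young and 5907 to 12680 CPM in aged pericytes. Endothelial markers were 1628 to 1759 CPM and 733 to 1244 CPM, and erythroid markers reached 16050 CPM in Aged C alone. Their part in the result was not tested.

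In myoepithelial cells, the contractile basal layer of the ducts, the share was 32.2%, 30.6% and 31.5% in young and 26.3%, 33.4%, 32.6% and 36.9% in aged mice. The aged mice surrounded the young. Of 82 members 3 were called higher, Rpl7l1, Rpl21 and Rpl6l, and 0 lower, against 12.8% of all genes called higher and 14.9% called lower. Rpl7l1 had 34.2, 41.3 and 38.7 TMM-scaled CPM in young and 73.0, 75.01, 72.1 and 90.9 in aged mice. The ages did not overlap, and the log2 fold change was 1.08 ± 0.24 (SE, edgeR's quasi-likelihood adjusted p = 0.00248).

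Rpl21 had 3150, 2889 and 2696 TMM-scaled CPM in young and 3333, 4507, 4764 and 5401 in aged myoepithelial cells. Aged A lay close to the young mice (log2 fold change 0.63 ± 0.21, edgeR's quasi-likelihood adjusted p = 0.0279), and the call was lost without any one mouse other than Aged A, with adjusted p of 0.0590 to 0.0962. Rps27l went the other way, with 565, 381 and 436 in young and 307, 323, 304 and 328 in aged mice. All aged mice were below all young mice, and the log2 fold change of −0.56 ± 0.19 (adjusted p = 0.0305) fell just short of the fold minimum. On library totals Rps27l was the 1 member called lower, and 1 member was called higher, against 17.1% and 9.64% of all genes. Without Aged A 10 members were called higher, and without Young C 1.

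HS cells and fibroblasts had 0 members called. In HS cells 10 of 82 members had an unadjusted p under 0.05, DESeq2 called 2, and 4.04% of all genes were called higher and 2.34% lower. Shares were 26.8%, 28.3% and 29.5% in young and 24.8%, 32.9%, 28.4% and 31.6% in aged mice, overlapping. Without Aged A 11 members were called higher, without Aged C 2 and without Young A 1. In fibroblasts 28 of 83 members had an unadjusted p under 0.05, DESeq2 called 2, and 2.09% of all genes were called higher and 1.25% lower. With library totals alone it was again 0 members, against 1.85% of all genes higher and 1.9% lower. Shares were 21.7%, 23.8% and 22.6% in young and 23.6%, 22.8%, 27.1% and 31.8% in aged fibroblasts, the highest in Aged D. All aged mice were above all young mice for 38 members and below for 0, against 7.02% and 8.91% of all genes, and the median was 0.33. Without Aged B or without Aged C 1 member was called.

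Mb macrophages, a type rich in Mmp12 and Mmp13, differed in the other direction. Shares were 20.2%, 18.7% and 18.2% in young and 15.1%, 14.4%, 13.9% and 12.3% in aged mice, and all aged mice were below all young mice by a mean of 5.14 points. The aged values rest on 22 cells, with 3 to 9 per mouse. Mitochondrially encoded UMIs were 3.01% to 3.64% in young and 1.93% to 2.76% in aged Mb macrophages, and summed luminal markers 416 to 2460 CPM and 82.0 to 401 CPM, with no overlap. Their part in the result was not tested. Per gene 0 of 80 members were called by edgeR or DESeq2, against 0.815% of all genes called higher and 0.233% lower, and 3 had an unadjusted p under 0.05. The aged mice were all above the young for 0 members, against 8.03% of all genes. They were all below for 16 on the TMM scale, against 9.43% of all genes, and for 49 on library totals, against 20.8%. The median log2 fold change was −0.15, against −0.02 for all genes. Rps18 was the 1 member called lower on library totals (0.698% of all genes).

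T and B cells, with 20 young and 40 aged cells in all, had shares of 27.2%, 39.2% and 34.0% in young and 32.6%, 38.6%, 36.0% and 40.6% in aged mice. The ages overlapped. Summed alveolar markers in these cells were 59.1 to 753 CPM in young mice and 3811, 694, 3555 and 10930 CPM in Aged A, B, C and D. Luminal markers were 237 to 4563 CPM in young and 2093 to 5085 CPM in aged mice. The part of these markers' cells or RNA in the shares was not tested. Of 80 members 0 were called by edgeR or DESeq2, with 8 at an unadjusted p under 0.05, and 0.219% of all genes were called higher. Aged mice were all above the young for 5 members and below for 0, against 7.0% and 8.32% of all genes.

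Whether the age difference itself varied between types was tested with an interaction in a model that held the mouse. The difference was larger in vascular endothelial than in AV cells for 22 of 82 members and smaller for 0, against 6.4% of all genes called larger and 3.74% smaller. The median interaction was 0.53 on the log2 scale. Rpl4, a large-subunit protein with a loop in the exit tunnel, led with 0.86 ± 0.11 (SE, edgeR's quasi-likelihood adjusted p = 0.000144), followed by Rps23 at 0.78 ± 0.10. The number called was 5 on library totals (4.96% of all genes), 39 with DESeq2, 8 without Young A and 14 without Aged C.

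Against fibroblasts, the age difference in vascular endothelial cells was larger for 59 of 83 members and smaller for 0, against 3.87% of all genes called larger and 2.09% smaller. The median was 0.64, and Rpl4 again led with 0.98 ± 0.16 (SE, edgeR's quasi-likelihood adjusted p = 0.000145), before Rpl5 at 0.86 ± 0.19 and Rpl3 at 0.85 ± 0.16. On library totals 2 members were called (1.97% of all genes), with a median of 0.38 over members and −0.25 over all genes. Between HS and AV cells 0 of 82 members were called by edgeR or DESeq2, with 7 at an unadjusted p under 0.05, against 1.76% of all genes called larger and 0.712% smaller in HS cells. The median was −0.32, and 3 members were called smaller in HS cells without Aged B.

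Across the 8 types 78 of the 85 members were called higher in at least 1 type and none was called lower, against 17.7% of 11953 genes in either direction. Of these members 50 were called in exactly 1 type, and 78 were called in vascular endothelial cells. Rpl21 was called in 4 types, and Rpl7, Rpl12, Rpl39, Rpl10, Rps12, Rps15, Rpl6l, Rps24, Rps10 and Rpl17 in 3. The 7 members called in 0 types were Rpl22l1, Rpl41, Rps27l, Rps18, Rpl39l, Rpl3l and Rpl10l. Rps27l had a negative log2 fold change in all 8 types, from −1.48 in T and B cells to −0.07 in Mb macrophages, and passed the adjusted p in myoepithelial cells alone.

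Several members share their sequence with another gene of the matrix. Reads of such a pair may have been split between the 2 genes, which was not tested. Matching transcripts of GENCODE vM21 at 95% identity or more found 39 near-identical copies of 27 members, of which 27 were annotated as pseudogenes and 11 as protein coding. Over all cells of a mouse, 22 copies had CPM above all young mice in every aged mouse, 2 had CPM below, and 15 overlapped, against 8.86% of all genes with a count above and 30.7% below. Whole-mouse values mix cell types in unequal numbers, such as 794 young and 4026 aged AV cells. Within types, 19 of 28 copies tested were called higher and 1 lower in vascular endothelial cells, 10 of 36 and 1 in AV cells, 13 of 30 and 2 in myoepithelial cells, and 11 of 32 and 1 in HS cells. In fibroblasts they were 11 of 24 and 1, in pericytes 10 of 20 and 1, in Mb macrophages 1 of 12 and 1, and in T and B cells 1 of 14 and 0. Of the 38 copies with a young mean above 0.5 CPM, 34 had their highest aged value in Aged A. All aged mice had more UMIs on copies, 1.42% to 2.37% of the total against 0.566% to 0.885% in young mice.

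The copies of 3 members differ from them by few bases. Coding bases 391 to 440 of Rps18, 744 to 793 of Rplp0 and 417 to 466 of Rpl29, counted from the A of the start codon, are shown as GENCODE vM21 gives them, 5′ to 3′, with the bases that separate a member from its copies in capitals.
Rps18: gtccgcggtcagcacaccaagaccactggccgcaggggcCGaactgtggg
Gm10260: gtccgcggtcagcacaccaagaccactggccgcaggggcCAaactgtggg
Rps18-ps3: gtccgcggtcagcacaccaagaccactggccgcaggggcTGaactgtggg
Rplp0: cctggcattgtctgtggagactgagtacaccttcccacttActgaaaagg
Gm8730: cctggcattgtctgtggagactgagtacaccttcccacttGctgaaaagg
Rpl29: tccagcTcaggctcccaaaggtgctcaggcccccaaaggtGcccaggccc
Gm10709: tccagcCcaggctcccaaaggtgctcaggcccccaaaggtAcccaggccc

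Rps18, on chromosome 17 (chr17:33951999-33956001), encodes a protein of the small-subunit head. Its copy Gm10260 lies on chromosome 13 (chr13:97760072-97760632, minus strand), is annotated as protein coding and is 99.1% identical over 545 bases. Over the 459 coding bases it differs by T186C, A337C, G371A and G431A, with the base of Rps18 first. Rps18-ps3 differs from Rps18 by G181C, A337C and C430T over 456 aligned coding bases.

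Gm10260 was nearly absent from young libraries, with 7.30, 6.46 and 7.19 CPM in Young A, B and C. It had 3326, 2821, 2107 and 3199 CPM in Aged A, B, C and D, which is 138128 UMIs against 251. The separation held in each of the 8 types. In T and B cells Gm10260 had 0 UMIs in young mice and 652 in aged mice. Age and the handling of the files cannot be told apart here. Beside the barcode format, the UMI totals listed per cell equalled the matrix in all 3 young mice and exceeded it, by up to 0.00977%, in all 4 aged mice. Rps18 itself had 5872, 5281 and 6312 CPM in young and 5738, 5885, 5623 and 6063 in aged mice, and the ages overlapped.

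With the counts of copies summed into their members, Rps18 joined the members called higher. Its log2 fold change in vascular endothelial cells was then 1.18 in place of 0.54 (edgeR's quasi-likelihood adjusted p = 3.14e-06), and in AV cells 0.70 in place of 0.06 (adjusted p = 0.0176). Rplp0, a protein of the stalk, went from 0.38 to 0.91 in AV cells (adjusted p = 0.014) and from 0.79 to 1.32 in vascular endothelial cells. Rpl11 went the other way in vascular endothelial cells, from 0.73 to 0.36 (adjusted p = 0.0398), because its copy Gm10036 was lower in aged mice. In all, 78 members of vascular endothelial and 27 of AV cells were called higher after summing. Before summing they were 78 and 20, against 14.2% and 2.92% of all genes. The share of all genes in the summed fit is not given. With a mouse left out and copies not summed, the AV number ran from 0 to 28.

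Gm8730, the copy of Rplp0, had 1973, 1608 and 336 CPM in young and 5601, 3046, 4905 and 5283 in aged mice, with Young C far below the other young mice. Gm10036, the copy of Rpl11, had 1469, 844 and 748 in young and 295, 125, 103 and 199 in aged mice. Gm10709 had 1059, 976 and 962 in young and 1431, 1487, 1246 and 1693 in aged mice. Rpl29, of which it is a copy, had 112, 60.7 and 52.9 in young and 173, 128, 70.5 and 155 in aged mice. Fewer UMIs were thus assigned to Rpl29 than to its pseudogene in every mouse.

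**Figure D4:**
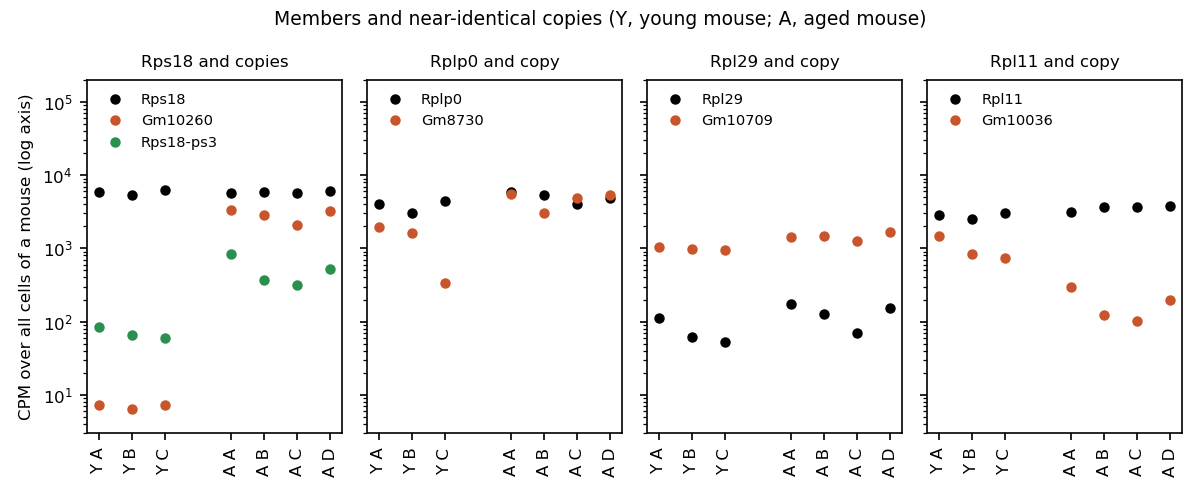
CPM over all cells of a mouse (y axis, log scale) for Rps18, Rplp0, Rpl29 and Rpl11 (black) and their near-identical copies (colours), with 1 point per mouse, Y young and A aged. Gm10260 is at 6.46 to 7.30 CPM in young libraries and 2107 to 3326 CPM in aged libraries, and Rps18 is between 5281 and 6312 CPM.

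Genes that serve the ribosome were counted in the same fits. Beside their counts stand the shares of all genes called higher, 14.2% in vascular endothelial cells, 12.8% in myoepithelial cells, 7.04% in pericytes, 4.04% in HS cells, 2.92% in AV cells and 2.09% in fibroblasts. Of 8 elongation factors tested, all 8 were called higher in vascular endothelial cells and 5 of 7 in pericytes. In AV and in myoepithelial cells 3 were called higher, in HS cells 2 and among fibroblasts 1, with 0 lower in any type. Tpt1, listed with them, was called in 6 types, Eef2, which moves the ribosome along the mRNA, in 5, and Eef1a1, which delivers aminoacyl-tRNA, in 4. Eef1a1 had 3156, 3324 and 3779 TMM-scaled CPM in young and 6996, 8312, 9091 and 10215 in aged vascular endothelial cells (log2 fold change 1.34 ± 0.14, edgeR's quasi-likelihood adjusted p = 1.83e-06). Its ages did not overlap, nor did those of Eef2 in AV cells, with 1232, 1254 and 1416 in young and 3260, 2788, 3020 and 3048 in aged mice (1.22 ± 0.14, adjusted p = 0.00129).

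Ribosome-associated proteins and fusion genes, which carry a ubiquitin-like domain before a ribosomal protein, were called higher for 4 of 6 in vascular endothelial and 2 of 6 in AV cells, with 0 lower. In the other 6 types 0 of 6 were called. Gnb2l1, which encodes the scaffold RACK1, was called in both types. Fau, which carries the small-subunit protein eS30, had 3466, 3781 and 3943 TMM-scaled CPM in young and 5531, 5199, 5965 and 7020 in aged AV cells (log2 fold change 0.67 ± 0.15). The aged mice were above the young.

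Initiation factors were called higher for 14 of 32 and lower for 1 in vascular endothelial cells, for 9 and 0 in myoepithelial cells and for 3 and 0 in AV cells. They were called higher for 3 and lower for 1 of 32 in HS cells, for 2 and 1 of 30 in pericytes, and for 0 in fibroblasts, Mb macrophages and T and B cells. Eif3e, Eif4a2 and Eif4b were called higher in 3 types each. Pdcd4, an initiation repressor which holds back the helicase Eif4a, was called lower in 3 types. Eif4ebp1, which encodes a repressor that binds the cap-binding factor, was called higher in myoepithelial cells (log2 fold change 2.62) and vascular endothelial cells (1.16), and no other of the repressors tested was called. Pdcd4 had 30.4, 59.6 and 25.8 TMM-scaled CPM in young and 9.92, 16.8, 9.61 and 7.85 in aged myoepithelial cells (log2 fold change −1.58 ± 0.37), and did not overlap.

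Genes of ribosomal RNA processing and ribosome assembly were called higher for 17 of 40 in vascular endothelial cells, 10 of 41 in myoepithelial cells and 1 of 42 in AV cells, with 0 lower in these. The AV share is near that of all genes, and the AV median was −0.17. In HS cells 0 were called higher and 1 lower of 41 (median −0.16), in pericytes 2 and 0 of 18, and 0 in the other 3 types. Ncl, which encodes nucleolin, was called in 3 types. It had 641, 679 and 727 TMM-scaled CPM in young and 1066, 1412, 1363 and 1299 in aged myoepithelial cells (log2 fold change 0.92 ± 0.19). All aged mice were above the young in cells where 3 of 82 ribosomal protein genes were called.

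Few mitochondrial ribosomal proteins were called higher. They were called lower for 15 and higher for 0 of 71 in myoepithelial cells (14.9% of all genes lower), lower for 8 and higher for 1 of 76 in HS cells (2.34%), and lower for 7 and higher for 4 of 71 in vascular endothelial cells, where 945 of 7864 genes were lower. The medians were −0.29, −0.29 and −0.19. In AV cells 0 were called lower and 1 higher of 76, and 0 were called in fibroblasts, pericytes, Mb macrophages and T and B cells. Mrps12 was called lower in 3 types, with 103, 94.4 and 103 TMM-scaled CPM in young and 44.0, 43.4, 62.2 and 49.1 in aged HS cells (log2 fold change −1.03 ± 0.16). Mrps6 was called higher in 3 types, with 45.4, 85.9 and 60.7 in young and 165, 168, 170 and 222 in aged AV cells (1.54 ± 0.24). Neither gene overlapped between the ages in these cells.

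**Figure D5:**
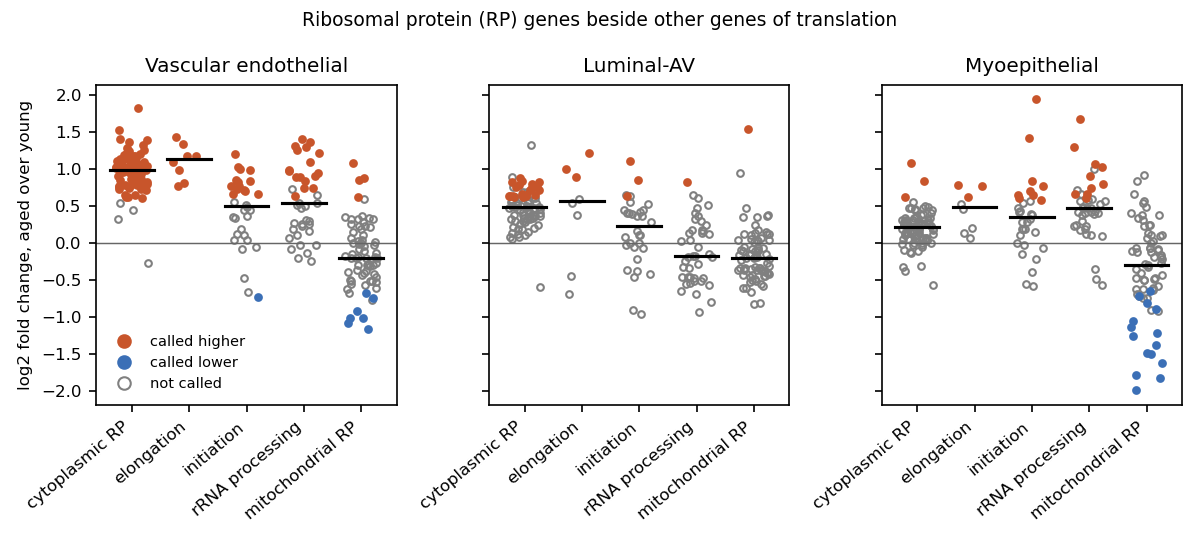
Log2 fold change between aged and young mice on TMM-scaled counts (y axis) for genes of 5 groups (x axis) in vascular endothelial, AV and myoepithelial cells, orange where called higher, blue where called lower and open where not called, with a line at each median. In vascular endothelial cells 78 of 82 cytoplasmic ribosomal protein genes and 8 of 8 elongation factors are called higher, while 4 mitochondrial ribosomal protein genes are called higher and 7 lower of 71.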

How the data were processed

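The authors made 1 10x 3′ v2 library per mouse, and the submitters' processing notes name Cell Ranger 2.0 and mm10. The annotation release is not given in the sources used here. The deposited matrix holds whole-number UMI counts per gene and cell after the authors' filters on cells. It comes with the authors' cell type and phase of each cell. The filters were meant to remove potential doublets, which the paper also estimated with Scrublet and DoubletFinder. No further step against doublets was taken here. The deposited cell table also gives the authors' mitochondrial fraction and cell cycle scores, which were not used for a result. Mouse was the replicate. Within each cell type the counts of a mouse were added up where it had 3 cells or more, and a type entered the age comparison where all 7 mice did, which left out HS-AV, dendritic, NK, Ma and lymphatic cells. Sums passed filterByExpr, were scaled by TMM and fitted with the robust quasi-likelihood test of edgeR 4.0.16 in R 4.3.3, with p-values adjusted by Benjamini-Hochberg over all genes tested. A gene was called at an adjusted p under 0.05 and at least 1.5-fold. Interactions held the mouse as a factor. Shares used plain sums, with Python 3.11.15 and pandas 2.3.3. Values called TMM-scaled CPM divide by library size times the TMM factor, and other CPM divide by the total.

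Copies were found by aligning GENCODE vM21 transcripts. A match needed at least 95% identity, and either at least 200 aligned bases or at least 80% of the shorter transcript. Positions are GRCm38, and start windows are from RefSeq. Members and gene lists were chosen with earlier results of these data known. The text names, per type and direction, up to 3 called members with the largest non-overlapping change, members and translation genes called in 3 types or more, paralog pairs, the 5 members of highest mean CPM and the 5 of largest spread over types, and members with copies. Rps23, Rpl4, Fau, Gnb2l1, Eif4ebp1 and the marker genes were added after their values were seen.

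Alternatives were DESeq2 1.42.0, RLE factors, scaling from other genes, no filter on low counts, no fold minimum, thinned sums, copies summed, a block of label letters and each mouse left out. Scaling to library totals alone was added after seeing the data, as were 3 settings of the share across types. On simulated data with known changes the age fit recovered, at a log2 change of 1, 55% of the changed genes in vascular endothelial cells (7617 genes) and 21% in AV cells (10772 genes). The label letters did not pair the mice.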

Additional observations from a re-analysis of the deposited data

Results flagged for a closer look

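Rpl7l1 in myoepithelial cells stood out within the aged group, where Aged D had 90.9 TMM-scaled CPM and the other 3 aged mice 72.1 to 75.01. Of 19 groups of values examined, 1 was set apart in this way, and chance alone sets apart about 1 in 20. All 4 aged mice were above the young mice at 34.2 to 41.3.

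The age difference of ribosomal protein genes differed between cell types in a test of the difference itself. It was larger in vascular endothelial than in AV cells for 22 of 82 members, against 6.4% of all genes. It was larger than in fibroblasts for 59 of 83 members, against 3.87% of all genes. On library totals alone the numbers were 5 (4.96% of all genes) and 2 (1.97% of all genes), near the shares of all genes.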

How the results depend on the processing

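Counts of called members in vascular endothelial cells (78) stayed between 72 and 81 under every alternative other than library totals alone, which gave 48 (47 higher, 1 lower). Library totals also gave 1 member, lower, in AV cells (20 higher in the report), 6 in pericytes (17), 1 in Mb macrophages (0), 5 for vascular endothelial against AV cells (22) and 2 against fibroblasts (59). Without the filter on low counts there were 11 in myoepithelial cells (3), 2 in HS cells (0), 1 in fibroblasts (0) and 7 in pericytes. Thinned sums gave 0 in myoepithelial cells, 0 in AV cells and 3 in pericytes. DESeq2 gave 2 in HS cells, 2 in fibroblasts and 39 for vascular endothelial against AV cells, where RLE gave 38 and no fold minimum 70. The cause was not tested.

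With a mouse left out, the numbers ran from 1 to 10 in myoepithelial cells, 0 to 11 in HS cells, 0 to 28 in AV cells, 0 to 1 in fibroblasts, 73 to 78 in vascular endothelial cells, 3 to 37 in pericytes, and stayed at 0 for T and B cells and for Mb macrophages. The interactions ran from 8 to 28 against AV cells, 62 to 72 against fibroblasts and 0 to 3 for HS against AV cells. The share difference in vascular endothelial cells (9.37 points) was 11.1 as a median over cells and 8.67 to 10.3 with a mouse left out. It ran from −0.678 to 2.84 in myoepithelial cells and from −5.55 to −4.56 in Mb macrophages.

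A replicate block of the label letters gave 72 in vascular endothelial cells, 1 in AV cells, 1 in myoepithelial cells and 3 in pericytes. The letters share only a name, as deviations of same-lettered mice correlated between −0.26 and 0.32 over 24 pairs, 3 of them over 0.1, and in 1 pair the best match was the own letter. Few cells limit Mb macrophages, T and B cells and pericytes.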
